A study of Gallus gallus with 12 samples.

Results

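The response of the chicken maxillary prominence to retinoic acid (RA) was measured as the average effect of RA beads over 2 states of BMP signalling. The comparison took all 12 of the 12 arrays: the 6 whose titles name retinoic acid against the 6 whose titles name DMSO (dimethylsulfoxide, the solvent of RA), with the second bead, Noggin or Tris, as a factor. The maxillary prominence is the bud of the embryonic face from which the side of the upper jaw grows, and mesenchyme and epithelium were collected together. The groups were Noggin+RA, Noggin+DMSO, Tris+RA and Tris+DMSO, with 3 pools of 12 to 15 embryos each and 1 array per pool. Every embryo, controls included, carried 2 beads in the side of the head, a 200 µm bead with Noggin or its buffer Tris and a 100 µm bead with all-trans RA or DMSO, both agents soaked in at 1 mg/ml. Beads were put in at Hamburger-Hamilton stage 15 (25 somites), eggs were kept at 38 °C, and tissue was taken 16 h later at stage 18. The dose that reached the tissue was set by release from the bead and was not measured, and neither breed nor sex of the embryos is given in the sources used here.

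RA is made from vitamin A by the retinaldehyde dehydrogenases (ALDH1A enzymes), is broken down by the CYP26 cytochrome P450 enzymes, and acts by binding nuclear receptors (RARs with RXRs) that sit on target genes. Among the best known targets of the receptors are genes that lower RA again, CYP26A1 and DHRS3, and the receptor gene RARB. In the face, RA from the eye, nasal pits and forebrain is needed for outgrowth of the upper beak. Noggin, secreted by cells of the embryo, traps BMP ligands and keeps them from their receptors. Noggin and RA beads together are known to turn maxillary tissue towards a frontonasal identity. The comparison asks which genes answered RA on average over Noggin and Tris beads. It does not require an answer with each bead type.

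Intensities below are the deposited probe set values on a linear scale. A probe set's change is the fitted RA minus DMSO difference of log2(intensity + 16), averaged over the 2 bead types, with its standard error (SE). Fold changes are on the same scale and understate changes of dim probe sets, and called means an adjusted p under 0.05. Means are given ± SD over 6 arrays with RA and 6 with DMSO, so that the SD holds the difference between bead types as well as that between pools. The GAPDH 5′ over 3′ ratio, a measure of RNA integrity, was 0.764 ± 0.0537 with RA and 0.746 ± 0.0895 with DMSO (n = 6 each). It was 0.7226, 0.7029 and 0.7362 with Noggin+RA against 0.69, 0.6989 and 0.6187 with Noggin+DMSO, and 0.7864, 0.7843 and 0.8492 with Tris+RA against 0.8125, 0.8192 and 0.8392 with Tris+DMSO. The RA arrays were thus all higher with Noggin, whereas with Tris 2 of 3 were lower than all DMSO arrays. In 6 measures of the arrays the adjusted p of an exact permutation test within bead type was 0.87 to 0.885, where the smallest unadjusted p the design allows is 0.005. Correlation between arrays was 0.976 to 0.982 within a group and 0.96 to 0.98 between groups. Markers of cranial mesenchyme were bright: VIM averaged 3635 ± 350 with RA and 3683 ± 494 with DMSO, and LUM 2690 ± 381 with RA and 2490 ± 257 with DMSO. These are bulk samples, in which fewer cells of a type and less RNA per cell cannot be told apart.

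RA changed few genes by this test, and the largest rise was in a gene of its own removal, CYP26A1. Of 21354 probe sets tested, 175 (0.82%) were called, 99 higher with RA (0.464%) and 76 lower (0.356%), against 2056 (9.63%) at an unadjusted p under 0.05. They stood for 122 named genes, 67 higher and 55 lower, and 45 probe sets had no gene symbol. Changes were mostly modest, with 35 of the 175 at 2-fold or more, 23 higher and 12 lower. In 77 of the 175 the 6 RA arrays and the 6 DMSO arrays did not overlap, and over all tested probe sets that held for 145 (0.679%). With 1 probe set per gene, the brightest, 110 of 10158 genes were called (1.08%), 61 higher (0.601%) and 49 lower (0.482%), and the median change over all of them was -0.005. The count turned on single pools. It was 190 without the first Tris+RA pool, with 140 of them among the 175. It was 167 without the second Noggin+RA pool and 131 without the first Tris+DMSO pool. But it fell to 51 without the third Tris+RA pool and 59 without the first Noggin+RA pool or the third Noggin+DMSO pool. It was 64 without the second Tris+RA pool, 70 without the second Noggin+DMSO pool and 85 without the second Tris+DMSO pool. Without the third Noggin+RA, the first Noggin+DMSO or the third Tris+DMSO pool it was 96. Each of the 175 kept its direction in all of those fits. With the GAPDH ratio as a covariate 46 probe sets were called for the average effect in place of 175, and 1 for the effect with Noggin alone in place of 95. The share of called probe sets that were higher, 56.6%, was 69.3% of 166 when arrays were centred on their medians.

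Genes that break down RA or divert its precursor rose together. Of 5 tested genes of RA breakdown and retinol storage, 4 rose and none fell (80%, against 1.08% of all genes called), with a median change of 1.60. CYP26A1, the main RA-degrading enzyme of early embryos, had intensities of 1236, 399.8 and 1360 on the Noggin+RA arrays against 79.63, 57.86 and 69.73 on the Noggin+DMSO arrays, and of 507, 2711 and 1933 on the Tris+RA arrays against 90.9, 191.7 and 156 on the Tris+DMSO arrays. All 6 RA arrays lay above all 6 DMSO arrays, while the RA arrays themselves spread widely. The change was 3.29 ± 0.40 (SE; 9.75-fold, adjusted p = 0.00535), the largest of all named genes. DHRS3, the enzyme that returns retinaldehyde to retinol, lay at 559.6 to 1691 (median 1032) with RA and at 178.1 to 339.2 (median 266.4) with DMSO. It rose 3.996-fold (1.998 ± 0.222, adjusted p = 0.00404) without overlap, and its second, dimmer probe set, with none of the 6 DMSO arrays above background, was at least 2.53-fold higher (fitted change 1.85 ± 0.25, adjusted p = 0.0101).

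The other CYP26 enzymes were less even across pools. CYP26B1 had 246.5, 122.2 and 354.4 with Noggin+RA against 52.34, 66.1 and 44.18 with Noggin+DMSO, and 76.32, 318.8 and 260.8 with Tris+RA against 66.51, 55.09 and 58.57 with Tris+DMSO. It rose 3.03-fold (1.60 ± 0.31, adjusted p = 0.0384) without overlap, but the first Tris+RA pool was barely above the controls. That call held in 2 of the 12 fits that left out 1 array, those without the second Noggin+RA pool and without the first Tris+RA pool, and the adjusted p reached 0.103. CYP26C1 lay at 355.4, 299.2 and 385.7 with Noggin+RA against 68.22, 99.08 and 111.7 with Noggin+DMSO, and at 165, 408 and 322.3 with Tris+RA against 196.6, 150.9 and 183.3 with Tris+DMSO. It rose 2.28-fold (1.19 ± 0.19, adjusted p = 0.0189), with a change of 1.75 with Noggin and 0.63 with Tris. The first Tris+RA pool was inside the Tris+DMSO range, so the groups overlapped, and the call was lost without the first Noggin+RA, the third Tris+RA or the second Tris+DMSO pool (highest adjusted p = 0.0586). The second CYP26C1 probe set was not called (1.092 ± 0.254, adjusted p = 0.0845). RETSAT, which saturates retinol, had a change of 0.24 ± 0.11 (adjusted p = 0.515).

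**Figure D1:**
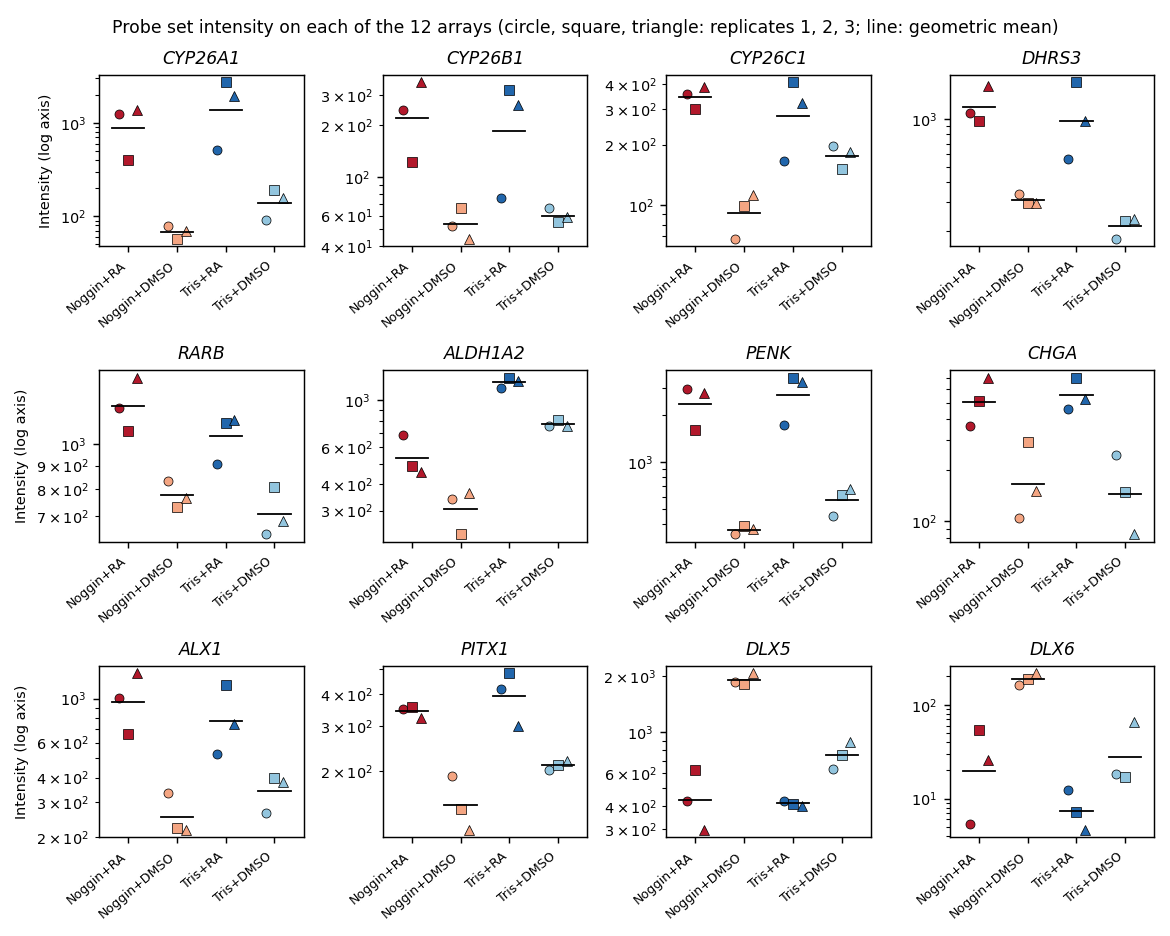
Intensity (log axis) of 12 genes on each array, with the 4 groups along the horizontal axis, 1 symbol per pool and a line at the geometric mean. The RA arrays of CYP26A1 (399.8 to 2711) sit above all DMSO arrays (57.86 to 191.7), the first Tris+RA pool (circle) is the lowest Tris+RA pool for each CYP26 gene, and DLX5 is at 297.7 to 625.8 with RA against 635.2 to 2072 with DMSO.

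Of 3 tested RA synthesis genes 1 rose (33.3%, against 1.08% of all genes called), ALDH1A2, the main RA-making enzyme of the embryonic trunk and face: its intensity was 683.6, 487.4 and 456.7 with Noggin+RA against 339.7, 232.3 and 364.7 with Noggin+DMSO, and 1145, 1275 and 1235 with Tris+RA against 758.4, 804.7 and 753.3 with Tris+DMSO. Within each bead type the RA pools lay above the DMSO pools, and the rise was 1.63-fold (0.71 ± 0.13, adjusted p = 0.0268), with 1.06 ± 0.13 (adjusted p = 0.00535) at its second probe set. The call at the brighter one was lost in 6 of the 12 fits that left out 1 array, those without the first Noggin+RA, the second or the third Tris+RA or any Tris+DMSO pool (highest adjusted p = 0.0725). ALDH1A3, the RA-making enzyme of the eye and nasal region, was not called (-1.23 ± 0.29, adjusted p = 0.0845). It had 171.9, 279.5 and 267.9 with Noggin+RA against 1708, 1025 and 1328 with Noggin+DMSO, but 100.3, 144.9 and 122.1 with Tris+RA against 68.01, 88.98 and 298.7 with Tris+DMSO. That is a change of -2.42 with Noggin and -0.03 with Tris, and the difference between the bead types had an adjusted p of 0.479 (unadjusted 0.00134). RDH10, which oxidises retinol, had a change of 0.02 ± 0.15.

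Of 8 tested receptor and binding protein genes, 1 rose (12.5%, against 1.08% of all genes called). RARB lay at 905.5 to 1388 (median 1118) with RA and at 641.4 to 832.4 (median 750) with DMSO, a rise of 1.502-fold (0.59 ± 0.10, adjusted p = 0.0207) without overlap, and its second probe set had a change of 0.46 ± 0.12 (adjusted p = 0.13). The call of RARB was lost without the first Noggin+RA, the second or the third Noggin+DMSO, the second or the third Tris+RA or the third Tris+DMSO pool, with an adjusted p of up to 0.0615. CRABP1, which carries RA in the cytoplasm, had a change of 0.44 ± 0.09 (adjusted p = 0.0584), and NRIP1, a corepressor of nuclear receptors, one of 0.39 ± 0.09 (adjusted p = 0.0686). The median of the list was 0.29. Of 13 further known RA targets, none was called and 7 had a positive change, with a median of 0.01.

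HOX genes, which RA activates along the trunk and hindbrain, were mostly below the filter: 6 of 17 on the array passed it. None of the 6 was called, against 1.08% of all genes. HOXB1, the hindbrain gene with known RA response elements, had 141.9, 63.81 and 145.7 with Noggin+RA against 26.16, 46.23 and 59.52 with Noggin+DMSO, and 55.62, 233.6 and 132.6 with Tris+RA against 27.82, 45.76 and 49.97 with Tris+DMSO. In 5 of the 6 RA pools it was above all DMSO pools, with a change of 1.21 ± 0.29 (adjusted p = 0.103). HOXA3 had none of the 6 DMSO arrays above background and 4 of the 6 RA arrays. With its DMSO values raised to background it was 1.05-fold higher on average, and it was not called (adjusted p = 0.161).

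Among genes that pattern the face, a pair of linked homeobox genes fell and others rose. Of 19 tested maxillary and first arch patterning factors, 2 rose and 3 fell (26.3% against 1.08% of all genes), with a median of -0.12. DLX5, a homeobox factor of the lower part of the first arch that sits next to DLX6 in vertebrate genomes, had 426.7, 625.8 and 297.7 with Noggin+RA against 1867, 1823 and 2072 with Noggin+DMSO, and 427.1, 410.9 and 399.7 with Tris+RA against 635.2, 755.2 and 882.5 with Tris+DMSO. It fell 2.78-fold (-1.48 ± 0.15, adjusted p = 0.00263), by -2.11 with Noggin and -0.84 with Tris, and all RA arrays lay below all DMSO arrays. DLX6 had 5.424, 53.84 and 25.62 with Noggin+RA against 161.9, 186.3 and 215.4 with Noggin+DMSO, and 12.29, 7.249 and 4.673 with Tris+RA against 18.5, 16.89 and 65.84 with Tris+DMSO. With 1 of the 6 RA arrays above background it was at least 1.74-fold lower (fitted change -1.64 ± 0.29, adjusted p = 0.0262). DLX6 needed DMSO arrays to pass the filter, so its place in the share of this list was not independent of its fall. The DLX6 call was lost in 6 of the 12 fits that left out 1 array (highest adjusted p = 0.0725): those without the third Noggin+RA pool, any Noggin+DMSO pool, or the second or the third Tris+RA pool.

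OTX2, a homeobox factor of the forebrain, eye and anterior head, lay at 228.4 to 475.1 (median 319.8) with RA and at 371.3 to 825.5 (median 551.1) with DMSO. It fell 1.61-fold (-0.69 ± 0.11, adjusted p = 0.0201), with -0.58 ± 0.11 (adjusted p = 0.0425) at its second probe set. The OTX2 call was lost without the second or the third Noggin+DMSO or the third Tris+DMSO pool (highest adjusted p = 0.0575). Several first arch factors had changes of like size below 0 that were not called: BARX1, a factor of proximal first arch mesenchyme, had -1.24 ± 0.30 (adjusted p = 0.0975), LHX8, a maxillary LIM homeobox factor, -0.96 ± 0.25 (adjusted p = 0.145), and NKX3-2, a jaw joint factor, -0.95 ± 0.22 (adjusted p = 0.0828).

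PITX1, a homeobox factor of the oral side of the first arch, had 349.2, 355.6 and 321.6 with Noggin+RA against 190.3, 141.6 and 117.7 with Noggin+DMSO, and 418.1, 481.4 and 300.3 with Tris+RA against 201.3, 210.7 and 218.4 with Tris+DMSO. It rose 1.99-fold (0.99 ± 0.13, adjusted p = 0.0067) without overlap, and the call held whichever array was left out. Its second probe set was not called (0.755 ± 0.217, adjusted p = 0.198). PRRX2, a paired-type homeobox factor of craniofacial mesenchyme, averaged 414.8 ± 113 with RA and 265.9 ± 129 with DMSO (0.71 ± 0.12, adjusted p = 0.0265), with overlap. Its call held only without the second or the third Noggin+RA, the first Noggin+DMSO, the first Tris+RA or the third Tris+DMSO pool (highest adjusted p = 0.0736). The second PRRX2 probe set was not called (0.651 ± 0.186, adjusted p = 0.193).

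Of 9 tested frontonasal patterning factors, 1 rose and none fell (11.1%, against 1.08% of all genes called), with a median of -0.13. That gene, ALX1, a paired-type homeobox factor needed for the frontonasal mesenchyme, had 1001, 659 and 1339 with Noggin+RA against 333.9, 222.1 and 218.5 with Noggin+DMSO, and 527.7, 1175 and 741.8 with Tris+RA against 266.5, 397.4 and 381.5 with Tris+DMSO. It rose 2.82-fold (1.496 ± 0.219, adjusted p = 0.0141) without overlap, and the call held whichever array was left out. EMX2, another frontonasal homeobox gene, had a change of 0.55 ± 0.18 (adjusted p = 0.298) and PAX6, the eye and nasal placode factor, one of -0.63 ± 0.21 (adjusted p = 0.3).

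Outside the RA pathway and the patterning genes, the largest rises were those of PENK (2.42) and FBXO32 (1.95). PENK, the precursor of the enkephalin opioid peptides, had 2975, 1618 and 2795 with Noggin+RA against 346.4, 391.3 and 373.1 with Noggin+DMSO, and 1736, 3487 and 3303 with Tris+RA against 455.2, 613.7 and 673.2 with Tris+DMSO. It rose 5.36-fold (2.42 ± 0.20) with the lowest adjusted p of the 30 named genes, 0.00114. Even the lowest RA array stood far above the highest DMSO array. FBXO32, a ubiquitin ligase subunit best known from muscle wasting, averaged 298.5 ± 178 with RA and 54.23 ± 7.97 with DMSO (1.95 ± 0.35, adjusted p = 0.0295). Its groups did not overlap, but the RA pools ran from 101.3 to 560.7 and the call held in 2 of the 12 fits that left out 1 array, again those without the second Noggin+RA or the first Tris+RA pool (highest adjusted p = 0.0835).

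TFPI2, a secreted inhibitor of serine proteases, lay at 638.7 to 2171 (median 1387) with RA and at 313.2 to 590.7 (median 427.6) with DMSO, and rose 2.95-fold (1.56 ± 0.23, adjusted p = 0.0141) without overlap. PLAU, the urokinase that activates plasminogen, had 654.4, 796.6 and 1308 with Noggin+RA against 312, 259.5 and 296 with Noggin+DMSO, and 187.8, 321.5 and 235.1 with Tris+RA against 91.27, 123.1 and 143.3 with Tris+DMSO. Within each bead type the RA pools were higher, and the rise was 2.39-fold (1.26 ± 0.18, adjusted p = 0.0121), while a second, dim probe set had a change of 0.13 ± 0.21. These were the 2 called at their brightest probe set of 26 tested genes of matrix and proteolysis (7.69%, against 1.08% of all genes called, median -0.03). With dimmer probe sets counted too, 3 genes of the list were called higher.

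RET, the receptor for glial cell line-derived neurotrophic factors, had 105.5, 95.73 and 110 with Noggin+RA against 47.86, 48.97 and 45.4 with Noggin+DMSO, and 164.5, 257.8 and 200.8 with Tris+RA against 50.78, 105.9 and 79.03 with Tris+DMSO. It rose 2.13-fold (1.09 ± 0.14, adjusted p = 0.00679), with a change of 0.14 ± 0.10 at its second probe set. CMBL, a cytosolic hydrolase, rose 2.44-fold (1.29 ± 0.17, adjusted p = 0.00742), with non-overlapping values of 156.3 to 355 with RA and 56.77 to 102.6 with DMSO. CCBE1, a secreted protein needed for lymphatic vessel growth, rose 2.20-fold (1.14 ± 0.19, adjusted p = 0.0221), and GPX3, an extracellular glutathione peroxidase, 2.07-fold (1.05 ± 0.18, adjusted p = 0.0215), both without overlap. The calls of CCBE1 and GPX3 held in 5 and 6 of the 12 fits that left out 1 array, with adjusted p of up to 0.0604 and 0.0615.

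CHGA, chromogranin A of neuroendocrine secretory granules, had 365.3, 511.9 and 700.4 with Noggin+RA against 104, 293.4 and 149.9 with Noggin+DMSO, and 459.3, 696 and 524.9 with Tris+RA against 245.6, 147.8 and 84.05 with Tris+DMSO. It rose 3.16-fold (1.66 ± 0.28, adjusted p = 0.0207) without overlap, and a second of its 3 probe sets rose too (0.96 ± 0.16, adjusted p = 0.023). The third, the dimmest, had a change of 0.031 ± 0.112. CHGA was the 1 called of 13 tested neuron and cranial ganglion markers (7.69%, against 1.08% of all genes). Of the 13, 11 had a positive change, against 4909 of 10158 genes, with a median of 0.50. NEFM, a neurofilament of cranial ganglion neurons, lay at 1808 to 3060 (median 2745) with RA and 434.1 to 3098 (median 1127) with DMSO, a change of 1.24 ± 0.39 (adjusted p = 0.258). The summed intensity of the 13 markers was 4422 to 6691 on the RA arrays and 2175 to 6973 on the DMSO arrays, so the first Tris+DMSO pool was the highest of all 12. The part of ganglion tissue in the rise of CHGA was not tested. That call was lost without the third Noggin+RA, the third Noggin+DMSO, the second or the third Tris+RA or the second Tris+DMSO pool (highest adjusted p = 0.0593).

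**Figure D2:**
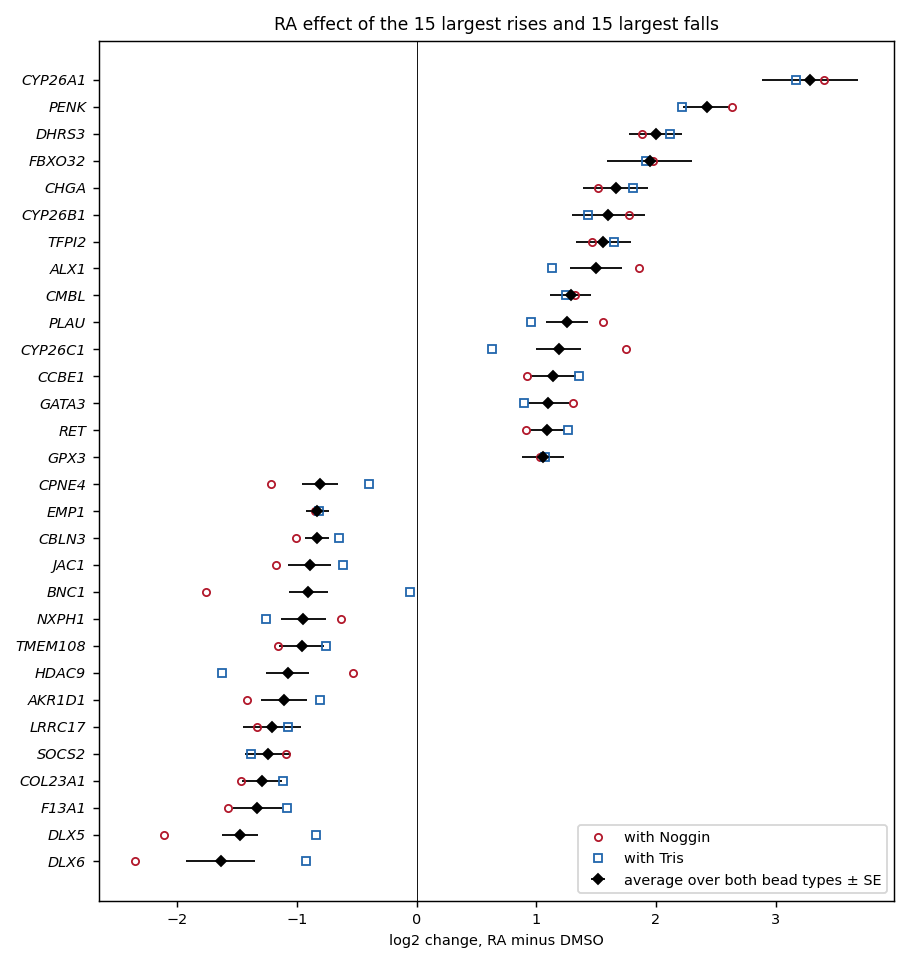
Change with RA (log2, RA minus DMSO, horizontal axis) of the 15 largest rises and the 15 largest falls among named genes, with the average over both bead types ± SE (diamonds), the effect with Noggin (circles) and the effect with Tris (squares). Averages run from 3.29 for CYP26A1 to -1.64 for DLX6, and the bead types lie far apart for BNC1 (-1.76 with Noggin, -0.05 with Tris) and close together for EMP1 (-0.85 and -0.82).

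Among the falls outside the patterning genes, COL23A1, a membrane-spanning collagen, had 532.1, 586.3 and 517.8 with Noggin+RA against 1562, 1660 and 1392 with Noggin+DMSO, and 648.6, 307.3 and 524.1 with Tris+RA against 1358, 850.9 and 978.1 with Tris+DMSO. It fell 2.45-fold (-1.29 ± 0.17, adjusted p = 0.0067) without overlap, while its 2 dimmer probe sets had changes of -0.29 ± 0.13 and -0.51 ± 0.42 that were not called. SOCS2, an inhibitor of cytokine and growth hormone signalling, lay at 55.38 to 127.9 (median 90.02) with RA and at 160.2 to 313.1 (median 217.8) with DMSO. It fell 2.36-fold (-1.24 ± 0.19, adjusted p = 0.0175) without overlap, and the call was lost only without the first Noggin+RA pool (adjusted p = 0.0511). EMP1, a small membrane protein of epithelia, had 172.6, 248.4 and 198 with Noggin+RA against 370, 429 and 346 with Noggin+DMSO, and 154, 164.6 and 156.1 with Tris+RA against 310.4, 264.9 and 300.1 with Tris+DMSO. It fell 1.78-fold (-0.83 ± 0.10, adjusted p = 0.00404), by nearly the same amount with both bead types. Its second, dimmer probe set was not called (-0.326 ± 0.2, adjusted p = 0.671).

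CBLN3, of the cerebellin family of secreted synaptic proteins, lay at 41.09 to 70.39 with RA and at 75.75 to 161.8 with DMSO, a fall of 1.78-fold (-0.83 ± 0.10, adjusted p = 0.00417). HDAC9, a class IIa histone deacetylase, had 151.3, 127 and 77.12 with Noggin+RA against 179.6, 172.5 and 165.7 with Noggin+DMSO, and 152.6, 74.31 and 102.6 with Tris+RA against 284.4, 369.3 and 446.6 with Tris+DMSO. It fell 2.11-fold (-1.08 ± 0.18, adjusted p = 0.0207), with a change of -0.53 with Noggin and -1.63 with Tris. That larger value with Tris ran against most called probe sets. The HDAC9 call held only without a Noggin+RA pool or without the first Tris+RA or Tris+DMSO pool (highest adjusted p = 0.0587).

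AKR1D1, which reduces steroids and bile acid precursors, fell 2.16-fold (-1.11 ± 0.19, adjusted p = 0.0256), from overlapping ranges of 89.38 to 220.3 with RA and 204.8 to 556.2 with DMSO. LRRC17, a secreted leucine-rich repeat protein, fell 2.31-fold (-1.21 ± 0.24, adjusted p = 0.0456), NXPH1, a ligand of neurexins, 1.93-fold (-0.95 ± 0.19, adjusted p = 0.0417), TMEM108, a transmembrane protein, 1.95-fold (-0.96 ± 0.19, adjusted p = 0.0402), and CPNE4, a calcium-dependent membrane-binding protein, 1.75-fold (-0.81 ± 0.15, adjusted p = 0.0353). JAC1 was at least 1.16-fold lower, with 1 of 6 RA arrays and 4 of 6 DMSO arrays above background (fitted change -0.90 ± 0.18, adjusted p = 0.0444). All of these overlapped between the groups. The second CPNE4 probe set was not called (-0.324 ± 0.205, adjusted p = 0.682). The calls of LRRC17, NXPH1, CPNE4 and JAC1 held in 2 of the 12 fits that left out 1 array, that of TMEM108 in 3 and that of AKR1D1 in 6, with adjusted p of up to 0.123.

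F13A1, the A subunit of clotting factor XIII and a gene of macrophages, had 23.67, 28.11 and 19.76 with Noggin+RA against 71.41, 110.5 and 134.7 with Noggin+DMSO, and 31.01, 2.685 and 13.2 with Tris+RA against 41.18, 41.81 and 58.16 with Tris+DMSO. None of the 6 RA arrays was above background, so it was at least 1.60-fold lower (fitted change -1.33 ± 0.21, adjusted p = 0.017), and the call was lost without the third Tris+RA pool (adjusted p = 0.0503). F13A1 passed the filter through DMSO arrays alone. Of 12 tested white blood cell markers none was called, and all 12 had a change below 0 (median -0.26). At an unadjusted p under 0.05 by limma, 6 of the 12 were lower and 0 were higher. That p was reached by 9.63% of all 21354 probe sets, in either direction. Over all genes 1.08% were called, and 4909 of 10158 had a positive change. Their summed intensity was 1958, 2061 and 1465 with Noggin+RA against 2509, 2485 and 3151 with Noggin+DMSO, and 1902, 1471 and 1804 with Tris+RA against 1865, 1743 and 2287 with Tris+DMSO. The sums did not overlap with Noggin and overlapped with Tris. CSF1R, the macrophage growth factor receptor, averaged 234.4 ± 58.8 with RA and 355.8 ± 105 with DMSO (-0.56 ± 0.18, adjusted p = 0.251). The part of blood cells in the fall of F13A1 was not tested.

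Of 14 tested BMP signalling targets, 4 rose (GATA3, BAMBI, SMAD6 and ID1) and 1, DLX5, fell (35.7%, against 1.08% of all genes called). The median was 0.27 (0.54 with Noggin and 0.08 with Tris). GATA3, a zinc finger factor downstream of BMP in the first arch, had 136.3, 97.19 and 140.5 with Noggin+RA against 39.33, 33.35 and 49.84 with Noggin+DMSO, and 222.6, 344.9 and 212.5 with Tris+RA against 95.36, 119.2 and 186.4 with Tris+DMSO. It rose 2.14-fold (1.10 ± 0.17, adjusted p = 0.017), and within each bead type the RA pools lay above the DMSO pools. BAMBI, a decoy receptor that dampens BMP and TGF-beta signals, rose 1.96-fold (0.97 ± 0.17, adjusted p = 0.0247), with 1186, 757.9 and 713 with Noggin+RA against 459.3, 464.3 and 441.8 with Noggin+DMSO, and 1216, 2485 and 1645 with Tris+RA against 848.4, 840.6 and 770.7 with Tris+DMSO. SMAD6, an inhibitory SMAD, rose 1.40-fold (0.49 ± 0.09, adjusted p = 0.0399).

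ID1, the BMP target that blocks basic helix-loop-helix factors, had 1601, 1416 and 1038 with Noggin+RA against 578.1, 513 and 545.4 with Noggin+DMSO, but 1868, 2020 and 2227 with Tris+RA against 2139, 1735 and 1925 with Tris+DMSO. Its average change of 0.67 ± 0.11 (adjusted p = 0.0197) was thus 1.26 with Noggin and 0.08 with Tris, and the difference between the bead types had an adjusted p of 0.248 (unadjusted 0.000162). ID2 and ID3, of the same family, had average changes of 0.57 ± 0.14 and 0.26 ± 0.15 that were not called. The calls of BAMBI, SMAD6 and ID1 held in 5, 2 and 7 of the 12 fits that left out 1 array, with adjusted p of up to 0.0631, 0.11 and 0.0587. No BMP ligand, receptor or antagonist of 17 tested was called at its brightest probe set (median -0.09). BMPR1B, a BMP receptor of prechondrogenic mesenchyme, came closest (-0.65 ± 0.14, adjusted p = 0.0584). FSTL1, a secreted BMP modulator, was called higher at a dim probe set (at least 1.12-fold, with 1 of 6 DMSO arrays above background). Its brightest probe set, also dim, had the opposite sign and was not called (-0.36 ± 0.0925, adjusted p = 0.131), with 2 of 6 RA arrays above background.

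Few genes of other signalling pathways were called. In the FGF pathway 1 of 17 tested genes rose, FGFR2, a receptor of epithelium and mesenchyme, at 1558 to 2168 (median 1872) with RA and 1023 to 1675 (median 1355) with DMSO (0.47 ± 0.08, adjusted p = 0.0277). The FGFR2 call held in 4 of the 12 fits that left out 1 array (highest adjusted p = 0.0767). FGFR2 was called at 1 of its 5 tested probe sets, and 5.88% of the list was called. FGF19, a ligand, had a change of 0.67 ± 0.15 (adjusted p = 0.0633). None of 12 hedgehog, 26 WNT, 12 Notch, 22 cell cycle, or 13 apoptosis and p53 genes was called at its brightest probe set, with medians from -0.16 (WNT) to 0.03 (hedgehog). Over all genes 1.08% were called, so 0 calls in a list this short do not set it apart. Of the WNT genes SFRP1, a secreted WNT antagonist, was called lower at its dimmer probe set (-0.46 ± 0.09, adjusted p = 0.0399) and had -0.45 ± 0.10 (adjusted p = 0.0686) at the brighter one.

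Among 30 axon guidance genes 2 rose and none fell (6.67%, against 1.08% of all genes called, median -0.02), both ephrin receptors. EPHA4 had 29.04, 44.07 and 24.86 with Noggin+RA against 9.704, 13.13 and 10.97 with Noggin+DMSO, and 89.59, 77.79 and 51.77 with Tris+RA against 33.41, 15.79 and 16.41 with Tris+DMSO. With 1 of the 6 DMSO arrays above background it was at least 1.16-fold higher (fitted change 1.03 ± 0.15, adjusted p = 0.014). EPHA4 passed the filter through RA arrays alone, so its place in the share of this list was not independent of its rise. EPHA5 averaged 170.3 ± 36.2 with RA and 91.74 ± 28.4 with DMSO (0.81 ± 0.13, adjusted p = 0.0207), a call lost without the first Noggin+RA, the third Noggin+DMSO, the second or the third Tris+RA or the second Tris+DMSO pool (highest adjusted p = 0.059).

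Of 8 tested cartilage and bone genes 1 rose and 1 fell (25%, against 1.08% of all genes called, median -0.19). HAPLN1, the link protein that ties hyaluronan to proteoglycans, had 528.9, 493.6 and 400 with Noggin+RA against 178.7, 141.1 and 161.9 with Noggin+DMSO, and 574.7, 568.5 and 562.7 with Tris+RA against 452.1, 425.7 and 426.1 with Tris+DMSO. It rose 1.90-fold on average (0.92 ± 0.09, adjusted p = 0.00219), by 1.47 with Noggin and 0.38 with Tris (adjusted p of the difference 0.196, unadjusted 3.96e-05). CYTL1, a cytokine-like protein of cartilage precursors, lay at 724.8 to 1301 (median 1039) with RA and at 1306 to 2255 (median 1690) with DMSO, a fall of 1.69-fold (-0.75 ± 0.11, adjusted p = 0.014) in which the highest RA array was just under the lowest DMSO array. Both calls held whichever array was left out. COL2A1, the cartilage collagen, had a change of -0.32 ± 0.13 that was not called, and SOX9, the master factor of cartilage, was above background on 1 of the 6 DMSO arrays and 4 of the 6 RA arrays and was not called.

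**Figure D3:**
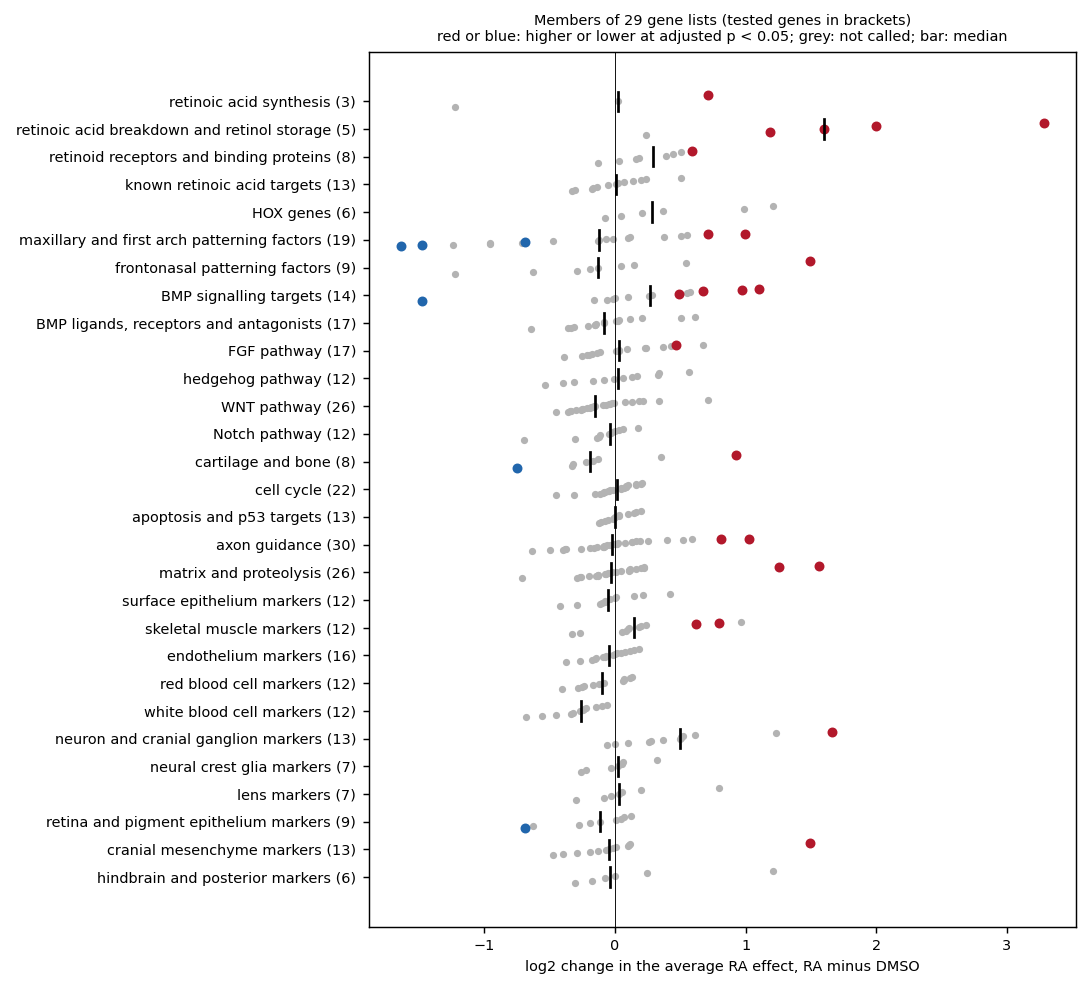
Change with RA (log2, horizontal axis) of every tested member of 29 gene lists, 1 row per list with the number of tested genes in brackets; red and blue points were called, and bars are medians. Genes of RA breakdown and retinol storage have the highest median (1.60, 4 of 5 called), while 0 of 22 cell cycle, 0 of 12 hedgehog and 0 of 12 Notch genes were called. Over all genes 1.08% were called.

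Of 12 tested skeletal muscle markers, 2 rose and none fell (median 0.15): MYL4, an embryonic myosin light chain, at 425.5 to 859.4 (median 534) with RA and 220.1 to 418.5 (median 338.7) with DMSO (0.79 ± 0.15, adjusted p = 0.0368), and TNNC1, a troponin of slow and cardiac muscle, at 236.9 to 447.2 (median 335.8) with RA and 143.3 to 312 (median 207.2) with DMSO (0.62 ± 0.12, adjusted p = 0.0371). These 2 were 16.7% of the list, against 1.08% of all genes called. The summed intensity of the list was 1659 to 2355 on the RA arrays and 1146 to 1535 on the DMSO arrays, without overlap. These sums include MYL4 and TNNC1 themselves, so they repeat the 2 calls in part. The median change of the list was 0.031 with Noggin and 0.232 with Tris. At an unadjusted p under 0.05 by limma, 3 of the 12 were higher and 1 was lower. That p was reached by 9.63% of all 21354 probe sets, in either direction. MYF5, the early muscle determination factor, had a change of 0.10 ± 0.15, and MYF6 one of 0.20 ± 0.14. The calls of MYL4 and TNNC1 held in 3 of the 12 fits that left out 1 array, with adjusted p of up to 0.101 and 0.102, and the part of muscle tissue in them was not tested.

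Other marker lists showed no called gene or 1. None of 12 surface epithelium, 16 endothelium, 12 red blood cell, 7 neural crest glia, 7 lens and 6 hindbrain and posterior markers was called. Over all genes 1.08% were called, so 0 calls in lists this short do not set them apart. Red blood cell markers had a median of -0.10, made of -0.53 with Noggin and 0.32 with Tris, and their summed intensity was 21120 to 31420 with RA and 14000 to 36640 with DMSO. Of 9 retina and pigment epithelium markers OTX2 alone was called (11.1%, median -0.12). At an unadjusted p under 0.05 by limma, 3 of the 9, OTX2 among them, were lower and 0 were higher. Of all 21354 probe sets 9.63% were under that p, in either direction. TYR and RPE65, pigment epithelium genes, had changes of 0.01 ± 0.11 and 0.07 ± 0.09. Of 13 cranial mesenchyme markers ALX1 alone was called (7.69%, median -0.05).

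**Figure D4:**
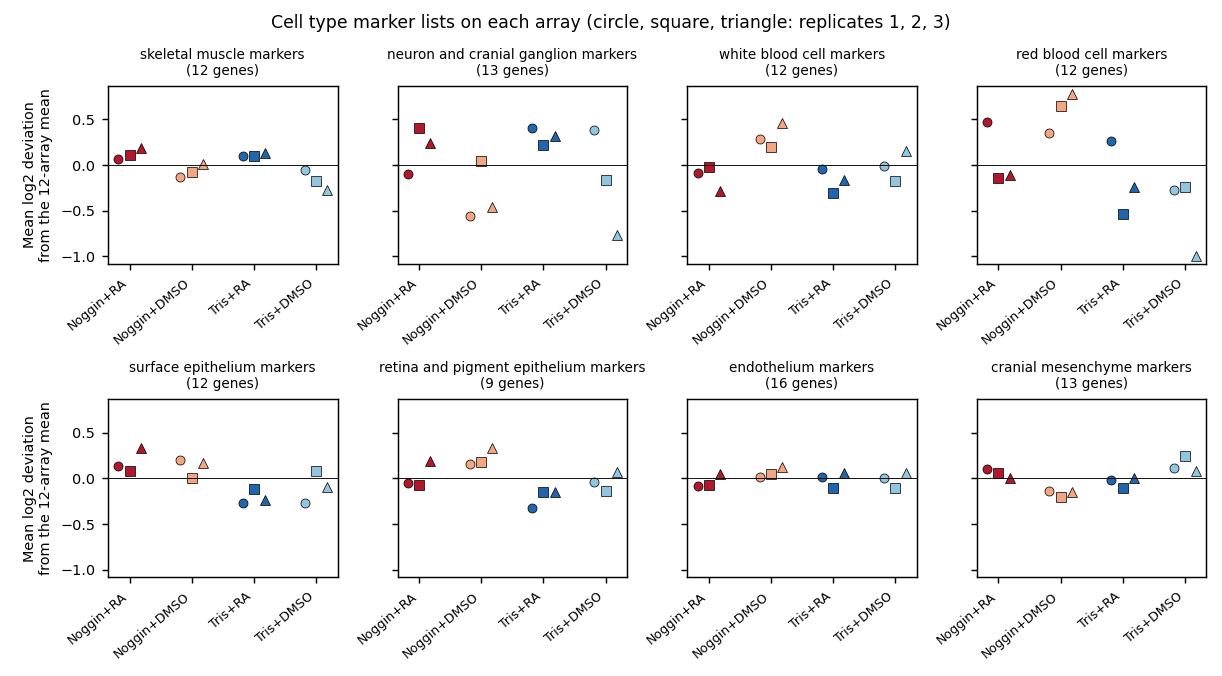
Mean log2 deviation from the 12-array mean (vertical axis) of 8 cell type marker lists on each array, with the 4 groups along the horizontal axis and 1 symbol per pool. Muscle markers, the called MYL4 and TNNC1 included, are at 0.064 to 0.185 on the RA arrays and -0.273 to 0.013 on the DMSO arrays. Red blood cell markers are at -0.533 to 0.473 on the RA arrays and -0.996 to 0.781 on the DMSO arrays.

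Large gene families held 2 called genes or fewer each. Of 30 tested collagen genes COL23A1 fell and COL24A1, a fibrillar collagen, rose (0.52 ± 0.09, adjusted p = 0.0291). Of 24 cadherin and protocadherin genes CDH2, the N-cadherin of mesenchyme and neural tissue, fell (-0.51 ± 0.10, adjusted p = 0.0319), and of 63 zinc finger genes ZNF521, a haematopoietic and neural factor, fell (-0.51 ± 0.10, adjusted p = 0.0402), while 1 of its 2 other probe sets had the opposite sign. The second CDH2 probe set was not called (-0.416 ± 0.109, adjusted p = 0.142). The shares called were 6.67% of collagen, 4.17% of cadherin and protocadherin and 1.59% of zinc finger genes, against 1.08% of all genes. None of 182 solute carrier, 61 cytosolic ribosomal protein and 76 mitochondrial respiratory chain genes was called at its brightest probe set. The same held for 55 heat shock protein and 14 integrin genes. The calls of CDH2, COL24A1 and ZNF521 held in 3, 2 and 1 of the 12 fits that left out 1 array, with adjusted p of up to 0.0912, 0.0794 and 0.104.

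The RA effect with Noggin and that with Tris share no array, so each can be set beside the other. All 175 called probe sets had the same sign with both bead types, which the averaging partly forces. Of the 100 probe sets with the lowest p with Noggin, 86% had the same sign with Tris, and of the 100 with the lowest p with Tris, 84% had the same sign with Noggin, against 55% of all 21354. Taken alone, the effect with Noggin was called at 95 probe sets (0.445%), 49 higher (0.229%) and 46 lower (0.215%), against 2016 (9.44%) at an unadjusted p under 0.05, and 83 of the 95 (87.4%) had the same sign with Tris. The effect with Tris alone gave 0 calls by limma, with 1368 probe sets (6.41%) at an unadjusted p under 0.05. Among the 175, 66 were also called with Noggin alone, and the change was larger with Noggin in 122. The median size of the change was 0.861 with Noggin and 0.635 with Tris among the 175. Among all 21354 probe sets it was 0.13 with Noggin and 0.114 with Tris.

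No probe set was called for a difference between the RA effects in the 2 bead types: limma gave 0 calls, a smallest adjusted p of 0.125, and 1274 probe sets (5.97%) at an unadjusted p under 0.05. The tests of the average and of the difference use the same estimate of a probe set's variance. Picking the 175 favours low estimates, which can raise their share in the test of the difference. Among the 175 called probe sets 52 (29.7%) were at an unadjusted p under 0.05 for that difference, and 46 of the 52 had the larger change with Noggin. BNC1, basonuclin, a zinc finger protein of stratified epithelia, was such a gene: it had 53.89, 30.81 and 65.59 with Noggin+RA against 159.2, 238.9 and 216.6 with Noggin+DMSO, but 51.98, 74.74 and 50.66 with Tris+RA against 54.44, 81.77 and 50.68 with Tris+DMSO. Its average fall of 1.88-fold (-0.91 ± 0.16, adjusted p = 0.0281) was -1.76 with Noggin and -0.05 with Tris (unadjusted p of the difference 0.000223). For BNC1, as for ID1, the average lay between a large change with Noggin and one near 0 with Tris. The BNC1 call was lost without the first Noggin+RA, the second or the third Noggin+DMSO, the first or the third Tris+RA or the second Tris+DMSO pool (highest adjusted p = 0.0808).

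**Figure D5:**
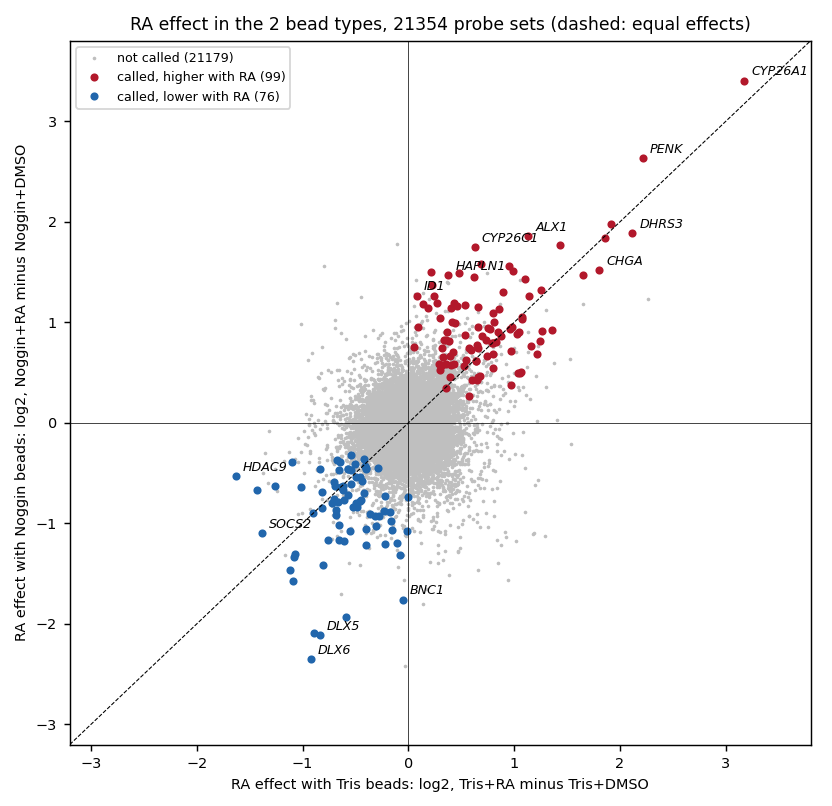
RA effect with Noggin beads (vertical axis, log2) against RA effect with Tris beads (horizontal axis, log2) for 21354 probe sets, with called probe sets in red (99 higher with RA) and blue (76 lower) and a dashed line of equal effects. CYP26A1 (3.40 with Noggin, 3.17 with Tris) and PENK (2.63 and 2.21) lie near the line, and DLX5 (-2.11 and -0.84), BNC1 (-1.76 and -0.05) and ID1 (1.26 and 0.08) lie towards the Noggin axis.

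Of the 30 genes with the largest rises and falls, 18 had no overlap between the RA and DMSO arrays, against 145 (0.679%) of all 21354 probe sets. The 30 were picked by the same RA minus DMSO change, so the lack of overlap is partly built in. Their adjusted p ran from 0.00114 to 0.0456. The calls of 13 held whichever array was left out: CYP26A1, PENK, DHRS3, TFPI2, ALX1, CMBL, PLAU, GATA3, RET, DLX5, COL23A1, CBLN3 and EMP1. Under every other change of processing or design in which the average effect was fitted, 8 of the 30 kept the call: CYP26A1, PENK, DHRS3, TFPI2, ALX1, CMBL, SOCS2 and EMP1. Those changes include the looser threshold, an adjusted p under 0.10, at which no call can be lost. They leave out the fits on the Noggin arrays alone and on the Tris arrays alone, which do not give the average effect. Of the 13, GATA3, RET, DLX5, CBLN3 and PLAU lost the call without a term for bead type. With a gene's probe sets averaged, PLAU and COL23A1 of the 13 lost it. Others of the 30 that lost it without the bead term were CYP26C1, CCBE1, DLX6, F13A1, LRRC17, AKR1D1, HDAC9, TMEM108, NXPH1, BNC1, JAC1 and CPNE4. All of these others also lost it with the GAPDH ratio as a covariate, as did FBXO32, CHGA, CYP26B1 and GPX3. Among listed genes outside the 30, RARB and ALDH1A2 lost it with that covariate too. CPNE4 also lost it with probe sets averaged. Called genes among the 30 and the listed ones numbered 48. Of the 48, 29 lost the call without the third Tris+RA pool and 25 without the first Noggin+RA or the third Noggin+DMSO pool. Without the second Noggin+DMSO or Tris+DMSO pool 24 lost it, and without the second Tris+RA pool 23. Leaving out the third Noggin+RA or Tris+DMSO pool lost 17, the first Noggin+DMSO pool 15 and the first Tris+DMSO pool 13, against 6 without the second Noggin+RA pool and 4 without the first Tris+RA pool. Several probe sets bear on 52 of the 122 called genes, and in 44 of the 52 all tested probe sets of the gene had the same sign. More than 1 probe set was called in only 8 of the 52.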

How the data were processed

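RNA from pools of maxillary prominences was measured on 12 one-colour Affymetrix chicken arrays, with 500 ng of total RNA per pool and 2 cycles of biotin labelling, per the labels' protocols. The authors deposited 1 linear intensity per probe set and array. Their mean without the top and bottom 2% was 150.03 on each array, so the authors had scaled the arrays to a common mean, and were many probe sets to rise, the scaling would lower the others. The summarization software is not given in the sources used here.

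Chicken probe sets above their array's median on 3 or more arrays were kept (21354 of 37693). The filter took no account of group, so a probe set could pass through RA arrays alone or DMSO arrays alone. limma 3.58.1 in R 4.3.3 (lmFit, eBayes) was fitted to log2(intensity + 16) with 1 mean per group over all 12 arrays, and tests were two-sided with Benjamini-Hochberg adjustment over all kept probe sets. The script was tested on simulated data. Background was the 95th percentile of 689 virus probe sets on the array (31.1 to 49). Where at most 2 of the 6 arrays on the lower side passed it, the fold is a lower limit. It is a mean with lower-side values under background raised to background. The limit therefore does not cover the spread between arrays. The number of arrays limits precision, and the pools are separate samples per the labels. Gene symbols came from the platform annotation and can be old. The genes named were the 15 largest rises and 15 largest falls among called probe sets that were the brightest of their gene, with accession, LOC and reading frame symbols left out, plus members of 29 lists and 8 gene families. Lists were described by the brightest probe set of each gene. Members, lists and tests were chosen with earlier results of these data known. Replicate numbers did not pair the arrays: deviations from group means of same-numbered arrays correlated at -0.098 to 0.069, with 0 of 18 pairs over 0.1. Differently numbered arrays of different groups correlated at -0.128 to 0.167, with 5 of 36 pairs over 0.1. Whether arrays shared a batch under other numbers was not tested. Alternatives changed the added constant, scaling, filter, variance model, covariates, design and arrays used.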

Additional observations from a re-analysis of the deposited data

Results flagged for a closer look

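In 70 named or listed genes and in the 6 measures of the arrays, the 6 RA and the 6 DMSO arrays were checked for 1 array far from the other 5. Genes named only under other observations were not checked. Of 152 sets of 6, 10 had such an array, by the gap to the nearest array as a share of the range (limit 0.625), and chance gives about 1 in 20. The second Tris+RA pool was low for COL23A1 (307.3 against 517.8 to 648.6 on the other RA arrays, share 0.696), TMEM108 (102.8 against 213 to 314.6, share 0.641) and ZNF521 (528.2 against 720.3 to 846.8, share 0.656). The third Noggin+RA pool was high for CMBL (355 against 156.3 to 213.7, share 0.625) and JAC1 (52.69 against 10.77 to 22.02, share 0.628), and low for the BMP targets ID2 (1705 against 2933 to 3491, share 0.757) and ID3 (100.1 against 181 to 201.8, share 0.84). The first Tris+RA pool was low for CYP26C1 (165 against 299.2 to 408, share 0.652). On the DMSO side, the second Tris+DMSO pool was low for NRP1, a semaphorin and VEGF receptor (650.9 against 811 to 917.8, share 0.639), and the first was high for EPHA4 (33.41 against 9.704 to 16.41, share 0.645).

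In 2 of the 70 named or listed genes the RA arrays lay on opposite sides of the DMSO arrays in the 2 bead types, without overlap in either. How many of all tested probe sets show that pattern was not counted, so these 2 genes are not set apart by it. PRRX1, a homeobox factor of craniofacial mesenchyme, had 690, 783.4 and 515.9 with Noggin+RA against 434.4, 342.1 and 424.9 with Noggin+DMSO, but 1060, 840.5 and 947.3 with Tris+RA against 1092, 1721 and 1213 with Tris+DMSO. The effect with Noggin minus that with Tris was 1.16, with an adjusted p of 0.473. SEMA3D, a secreted guidance cue, had 187.9, 170.2 and 129.2 with Noggin+RA against 360.9, 344.2 and 366.6 with Noggin+DMSO, but 318, 279 and 333.6 with Tris+RA against 265.6, 244.1 and 249.3 with Tris+DMSO. Its difference was -1.35, with an adjusted p of 0.125, the lowest of all probe sets. Neither passes the threshold.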

How the results depend on the processing

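The count of 175 probe sets called for the average effect was 125 and 239 with 1 and 64 added in place of 16, 80 without the filter, 46 with the GAPDH ratio as a covariate, 39 without a term for bead type and 298 at an adjusted p under 0.10, and ranged from 51 to 190 with 1 array left out. Median centring gave 166, of which 69.3% were higher against 56.6%. With the replicate number as a block, although numbers did not pair the arrays, it was 82, of which 79 were among the 175, and 42 with Noggin alone. The count with Noggin alone (95) was 51 and 155 with 1 and 64 added, 45 without the filter, 185 with array weights, 1 with the GAPDH covariate, 196 at 0.10, 32 on the 6 Noggin arrays alone and 25 to 94 with 1 array left out. With Tris alone (0) it was 10 with 64 added, 2 with median centring, with the virus background filter, at 0.10 and with gene means, 8 with a variance trend and robust fit, and 0 to 21 with 1 array left out, the 21 without the first Tris+RA pool. The difference between bead types (0) gave 1 with 64 added and 0 to 1 with 1 array left out. With 1 array left out, RA minus DMSO ranged from -0.00192 to 0.0299 for the actin ratio, -0.00911 to 0.0221 for the EF1A ratio and -0.498 to 0.51 for the percent of probe sets above background. None of 70 named or listed genes changed direction in the average effect in any setting that used both bead types. The cause of these shifts was not tested.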

Other observations

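Among called genes outside the lists, the single genes below were chosen after their values were seen, and no group of genes was tested. DACH1, a transcriptional corepressor, lay at 897.4 to 1165 (median 1056) with RA and 355.8 to 814.5 (median 618.4) with DMSO at its brighter probe set (0.86 ± 0.10, adjusted p = 0.00404), without overlap, and its other probe set had a change of 0.88 ± 0.14. DACH2, of the same family, lay at 133.1 to 226.7 with RA and 77.67 to 133.4 with DMSO (0.63 ± 0.09, adjusted p = 0.0151). Its other probe set was not called (0.397 ± 0.144, adjusted p = 0.359). MEOX2, a homeobox factor of mesoderm and vessels, lay at 319.7 to 552.1 (median 397.8) with RA and 174 to 302.2 (median 209.4) with DMSO, a rise of 1.83-fold (0.87 ± 0.10, adjusted p = 0.00404) without overlap.

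MYL9, a myosin light chain, and MYLK, a kinase of myosin light chains, rose 1.71-fold and 1.41-fold, with 369 to 708.4 for MYL9 with RA and 218 to 361.2 with DMSO. The second MYLK probe set was not called (0.314 ± 0.0678, adjusted p = 0.0637). METRNL, a secreted protein, lay at 1987 to 2809 with RA and 1394 to 1582 with DMSO (0.70 ± 0.10, adjusted p = 0.014), and CA9, a carbonic anhydrase of the cell surface, at 1949 to 3043 with RA and 1035 to 1671 with DMSO (0.78 ± 0.12, adjusted p = 0.0162). JUN, a subunit of the AP-1 factor, rose 1.44-fold (0.53 ± 0.09, adjusted p = 0.0277). On the other side PLXNC1, a semaphorin receptor, fell 1.57-fold (-0.65 ± 0.12, adjusted p = 0.0286) and SHROOM3, which drives apical constriction of epithelia, 1.43-fold (-0.52 ± 0.09, adjusted p = 0.0209), both without overlap. PLXNC1 was called at 1 of its 3 tested probe sets.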
